A study of Mus musculus with 16 samples.

Results

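The comparison described here sets the brain cortex of 5xFAD-Dp16 mice, which carry a duplicated stretch of chromosome 16 together with the 5xFAD transgenes, against the cortex of wild-type C57BL/6J mice. Its members are 8 RNA libraries of 16 in the series, 4 of each genotype, taken by their genotype labels, and all genes were examined. Each library came from 1 mouse aged 5 months. The 4 5xFAD-Dp16 mice were males, and the 4 wild-type mice were 2 males and 2 females. Dp16 mice carry an extra copy of the mouse segment that corresponds to a large share of human chromosome 21 and are used as a model of Down syndrome. 5xFAD mice carry human transgenes with mutations of familial Alzheimer disease, which the Thy1 promoter expresses in neurons. The wild-type mice carry neither. The remaining 8 libraries, 4 from Dp16 and 4 from 5xFAD mice, entered the same model and are given side by side where they locate a value.

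An extra copy of a chromosome segment raises the amount of template for every gene in it, so transcript levels near 1.5 times the normal level are the usual reference for a triplicated gene. In amyloid models, microglia around plaques lower genes of the resting state and raise a set that includes Clec7a, Cst7, Itgax and Trem2, known as the disease-associated state, and astrocytes raise Gfap. Several genes of the triplicated segment encode receptor subunits for interferons, the signals that raise interferon-stimulated genes.

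The 8 libraries held 12483286 to 20061944 counted reads, and 7.71 to 9.48% of reads came from the mitochondrial genome. Cortical neuron genes were present in all of them: Slc17a7, a vesicular glutamate transporter, ranged from 479.9 to 967.1 CPM (a gene's reads scaled to a common library size) in wild-type and from 627.4 to 991.2 in 5xFAD-Dp16. Sex-linked genes matched the labelled sex in 16 of 16 libraries. At an equal depth of 12483286 reads, 18331 to 20294 genes were detected in wild-type libraries and 20173 to 21209 in 5xFAD-Dp16 libraries. Libraries also differed in how levels followed gene length: Spearman's rho, over genes, of length with the departure of a library from the average was -0.316, -0.416, -0.151 and 0.49 in wild-type replicates 1 to 4, and 0.516, 0.127, 0.434 and 0.256 in 5xFAD-Dp16. Sex, detected genes and length trend are therefore unbalanced between the genotypes, and their part in the results was not tested except where a value without them is given. Wild-type replicate 3 held olfactory transcripts that were at 0 in the other wild-type libraries (Bpifb9b at 32.7 CPM and Obp2a at 7.69 CPM), and wild-type replicate 1 held Omp, an olfactory neuron gene, at 6.85 CPM. These olfactory genes were chosen after their values were seen.

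In cortex with both modifications 8 genes rose and 0 fell. The 8 were the microglial genes Clec7a and Cst7, 3 genes of the triplicated segment (Dyrk1a, Ncam2 and Ttc3), and Thy1, Vat1l and nonagouti (symbol a). They are 0.047% of the 17019 genes tested by edgeR's quasi-likelihood test at a Benjamini-Hochberg adjusted p under 0.05, and the share lowered was 0.0%. At an unadjusted p under 0.05 there were 893 higher genes (5.25%) and 871 lower genes (5.12%). All 5xFAD-Dp16 libraries lay above all wild-type libraries for 404 genes (2.37%) and below them for 274 (1.61%). The median log2 difference over all genes was 0.02, and 52.4% of genes were above 0. DESeq2 on the same counts called 76 higher and 30 lower, so the number of genes called depends on the tool.

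Clec7a encodes dectin-1, a pattern-recognition receptor of myeloid cells (chromosome 6, 129461591 to 129472779, GRCm38). It stood at 0.952, 0.743, 0.182 and 0.421 CPM in wild-type replicates 1 to 4 and at 12.1, 12.3, 13.7 and 9.91 CPM in 5xFAD-Dp16. All 4 5xFAD-Dp16 libraries were far above all wild-type libraries, and they lay within a narrow range. The log2 difference was 4.63 (SE 0.36, adjusted p = 6.51e-06 by edgeR). Cst7, an inhibitor of lysosomal cysteine proteases (chromosome 2, 150570415 to 150578944), stood at 0, 0, 1.33 and 0.316 CPM in wild-type and at 14.96, 15.1, 13 and 7.87 CPM in 5xFAD-Dp16. Again the groups did not overlap, and the log2 difference was 5.18 (SE 0.66, adjusted p = 0.003). Both genes kept their call in 8 of the 8 models that left out 1 of these libraries.

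Thy1 encodes a neuronal surface glycoprotein (chromosome 9, 44043384 to 44048579), and its promoter drives the transgenes. It stood at 861, 855, 883 and 946 CPM in wild-type and at 1794, 1705, 1617 and 1472 in 5xFAD-Dp16, with no overlap. The log2 difference was 0.95 (SE 0.12, adjusted p = 0.00243), and Thy1 kept its call without any 1 of the 8 libraries. Reads of the endogenous gene and of Thy1 sequence carried by a transgene cannot be told apart in counts per gene. Vat1l, a gene related to the vesicle amine transport protein Vat1 (chromosome 8, 114205612 to 114374071), stood at 39.3, 43.7, 41.0 and 55.0 CPM in wild-type and at 71.1, 67.6, 68.7 and 68.4 in 5xFAD-Dp16. The groups did not overlap, and Vat1l rose by 0.77 (SE 0.12, adjusted p = 0.0252). In the single genotypes, which share the wild-type libraries as controls, Vat1l differed from wild-type by 0.39 (Dp16) and 0.42 (5xFAD) on the log2 scale.

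Nonagouti, the coat-colour signalling protein (chromosome 2, 154791402 to 155051012), was without reads in wild-type (0 in 4 libraries) and had 38 to 51 reads in each 5xFAD-Dp16 library. This mean of 2.48 CPM (SD 0.316, n = 4) was at least 53.3-fold higher than 0.0466 CPM, which is what 3 counts in all wild-type reads together would give (adjusted p = 0.0252). The Dp16 libraries held 41 to 98 reads each, while the 4 5xFAD libraries held 5 in all. The gene overlaps Raly, which encodes an RNA-binding protein and stood at 156 to 236 CPM in wild-type and 132 to 175 CPM in 5xFAD-Dp16. The strand setting of the counting is not given in the sources used here. Of 77 other genes within 1 Mb of nonagouti, 36 were tested, with a median log2 difference of -0.12. At an unadjusted p under 0.05 stood 0 on the higher side and 5 on the lower side (background 5.25% and 5.12%). The largest difference among them was that of Bpifb9b, at -6.97, which rests on wild-type replicate 3 (32.7 CPM, 0 in the other wild-type libraries). Necab3, an EF-hand calcium-binding protein gene among them, stood at 64.8 to 78.3 CPM in wild-type and 48.7 to 60.7 CPM in 5xFAD-Dp16 (log2 difference -0.42, adjusted p = 0.322).

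**Figure D1:**
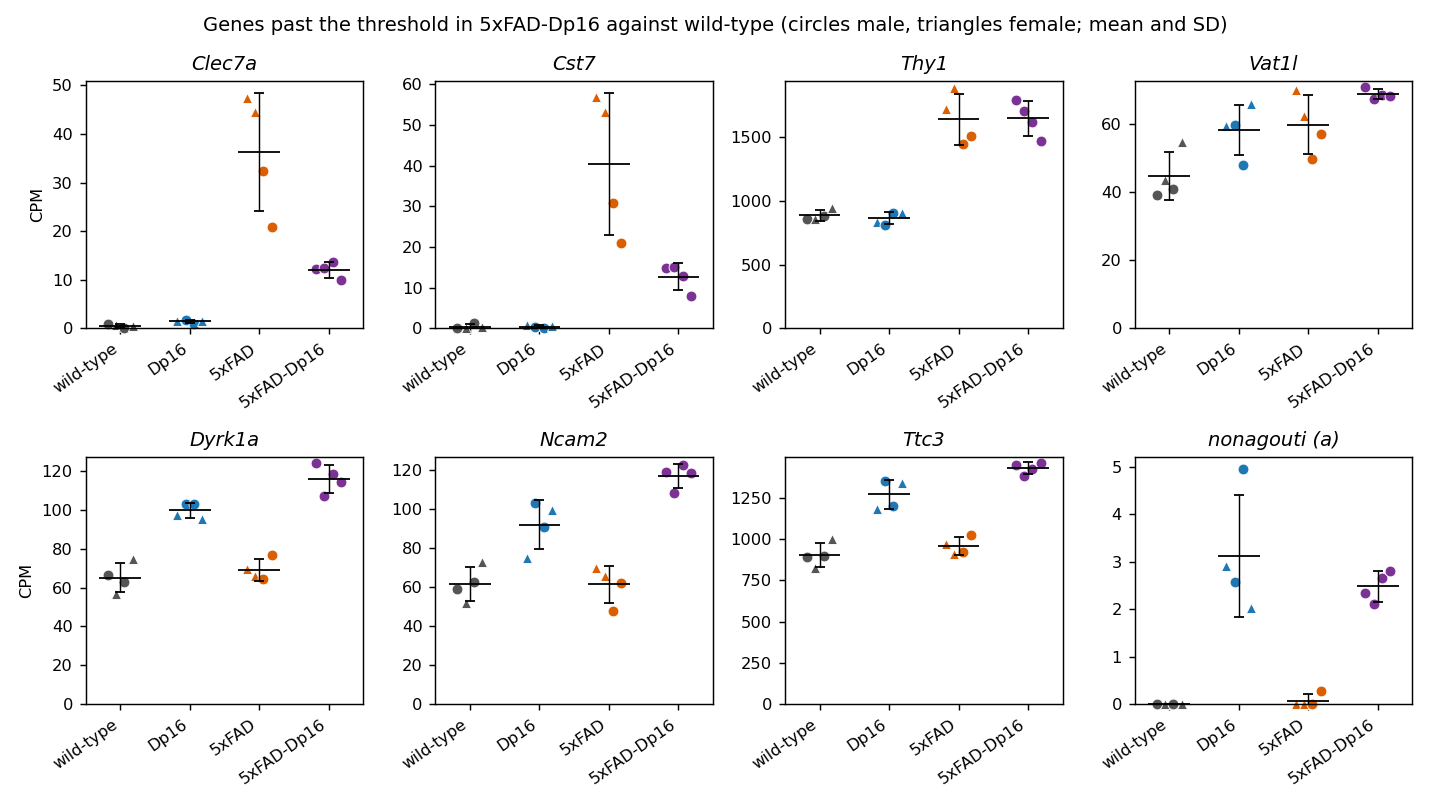
Level in CPM of each of the 8 called genes in each library of the 4 genotypes; circles are males, triangles are females, and bars give the mean and SD (n = 4). The 5xFAD-Dp16 points lie above all wild-type points for each gene, and Clec7a and Cst7 lie higher still in 5xFAD.

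In the plot of the called genes by library, Clec7a, Cst7 and Thy1 were high in both genotypes with transgenes. Dyrk1a, Ncam2, Ttc3 and nonagouti were high in both genotypes with the duplication, and Vat1l was between wild-type and 5xFAD-Dp16 in both single genotypes by its log2 differences. The calls were not equally firm. Dyrk1a passed in 3 of the 8 models without 1 library, Ncam2, nonagouti and Vat1l in 2, and Ttc3 in 1. Among males alone, 2 against 4, Clec7a (adjusted p = 0.00387) and Thy1 (adjusted p = 0.04) passed, and the other 6 had adjusted p of 0.0509 to 0.119. With only these 8 libraries in the model 0 genes passed, and the adjusted p of Clec7a was 0.134. Just outside the threshold were Jam2, Cd52, Ifnar1 and Nmral1, each at an adjusted p of 0.0645, Tmem50b at 0.0934, and Ripk4 and Itgax at 0.0991. Nmral1, which encodes a sensor of the NADP redox state, was the only one of these on the lower side, at 19.9 to 31.2 CPM in wild-type and 15.1 to 16.3 CPM in 5xFAD-Dp16.

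The triplicated segment spans 22.4 Mb of chromosome 16 (75540514 to 97962622, GRCm38, Lipi to Zbtb21) and holds 384 annotated genes, of which 147 code for protein. After the filter on low counts 105 were tested; of the 279 others, 215 had no read in the 8 libraries. The tested genes stood higher by a median log2 difference of 0.56, or 1.48-fold, against 0.02 over all genes. Of them, 98 were above 0, 50 were higher and 0 lower at an unadjusted p under 0.05, and 40 had no overlap between the groups, beside the background shares of 5.25% and 2.37%. The 3 called genes were Dyrk1a, Ncam2 and Ttc3. On the rest of chromosome 16 the median of 415 tested genes was -0.01, with 19 higher and 20 lower at an unadjusted p under 0.05.

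Higher levels were found along the whole segment. In 4 consecutive runs of 27, 26, 26 and 26 genes, the median log2 differences were 0.61, 0.52, 0.52 and 0.61. The 95% interval of a gene's log2 difference held the 1.5-fold value (0.585) in 95 of the 105 genes. It lay above that value for 5 genes (Ncam2, Tiam1, Kcnj6, Ripk4 and C2cd2) and below it for 5 (Gm9843, Sod1, A930006K02Rik, Mrps6 and Cbr3). These intervals are from the fit that keeps the length trend, and the part of gene length in this split was not tested. For 50 genes the interval held both 0 and 0.585, so at this depth and spread the copy change could not be separated from no change gene by gene. The 88 protein-coding genes had a median of 0.58 with 87 above 0, and the 17 others a median of 0.34 with 11 above 0. The mean log2 level of the segment's tested genes, set to 0 in wild-type, ran from -0.02 to 0.04 in wild-type, 0.53 to 0.58 in 5xFAD-Dp16, 0.49 to 0.53 in Dp16 and 0.04 to 0.11 in 5xFAD. Once the length trend of each library was removed, the median was 0.50, with 102 genes above 0 and 57 higher at an unadjusted p under 0.05, against 4.68% of all genes in that fit. Among males 55 were higher, against 8.46% of all genes.

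**Figure D2:**
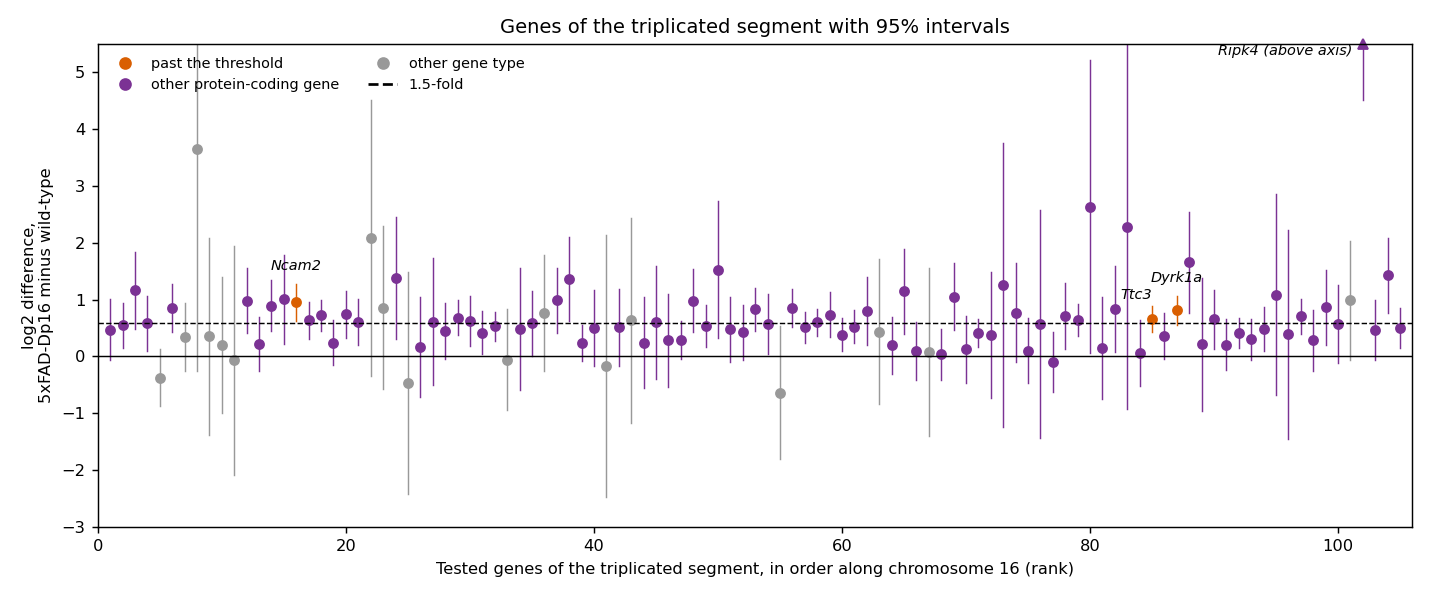
Log2 difference between 5xFAD-Dp16 and wild-type for the 105 tested genes of the triplicated segment in chromosomal order, with 95% intervals; lines mark 0 and the 1.5-fold value, and Ripk4 lies above the axis. Of the genes, 98 lie above 0, and the intervals of 95 hold the 1.5-fold value.

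The plot of the segment in chromosomal order shows values above 0 in each of the 4 runs, with 24, 24, 24 and 26 genes above 0. Among kinases and signalling genes, Dyrk1a, a dual-specificity kinase (94570010 to 94695517), stood at 66.2, 56.8, 62.7 and 74.4 CPM in wild-type and at 124, 107, 118 and 114 CPM in 5xFAD-Dp16. The groups did not overlap, and Dyrk1a rose by 0.81 (SE 0.12, adjusted p = 0.0132). Rcan1, an inhibitor of the phosphatase calcineurin, stood at 64.4 to 73.1 CPM in wild-type and 84.4 to 93.6 CPM in 5xFAD-Dp16, without overlap (log2 difference 0.41, SE 0.12, adjusted p = 0.331). Tiam1, an activator of the GTPase Rac, had a log2 difference of 1.36 (SE 0.35, adjusted p = 0.29), with 11.4 to 36.4 CPM in wild-type and 33.5 to 67.5 CPM in 5xFAD-Dp16. Ripk4, a kinase of epithelial differentiation, was without reads in wild-type and had 17 to 48 reads per 5xFAD-Dp16 library, at least 30.3-fold over the pooled limit (adjusted p = 0.0991). The Dp16 libraries held 8 to 25 Ripk4 reads each, and the 5xFAD libraries, which lack the duplication, held 13 in all.

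Adhesion and ubiquitin genes included the other 2 calls. Ncam2, a neural cell adhesion molecule (81200697 to 81626828), stood at 59.1, 51.7, 62.9 and 73.0 CPM in wild-type and at 119, 108, 123 and 118 CPM in 5xFAD-Dp16, and rose by 0.95 (SE 0.15, adjusted p = 0.0274). Ttc3, an E3 ubiquitin ligase (94370618 to 94469343), stood at 891, 826, 895 and 999 CPM in wild-type and at 1450, 1378, 1425 and 1461 CPM in 5xFAD-Dp16, and rose by 0.66 (SE 0.11, adjusted p = 0.0363). Neither gene had overlapping groups. The Ttc3 value depended on the length trend: its log2 difference ran from 0.31 to 0.69 over the settings tried, and its adjusted p was 0.561 with the trend removed. Ncam2 and Dyrk1a also missed the threshold in that edgeR fit (adjusted p = 0.0761 and 0.0506). Over the settings tried, their lowest log2 differences were 0.63 for Ncam2 and 0.59 for Dyrk1a. Jam2, a junctional adhesion molecule, stood at 53.3 to 62.4 CPM in wild-type and 84.9 to 102 CPM in 5xFAD-Dp16 (log2 difference 0.72, adjusted p = 0.0645). Dscam, an adhesion molecule of neurite patterning, had a log2 difference of 0.86, and Usp25, a deubiquitinase, had 0.85. Both were without overlap between the groups and missed the threshold (adjusted p = 0.449 and 0.233).

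Receptor subunits for interferons lie in the segment as a cluster. Ifnar1, a subunit of the type I interferon receptor, stood at 27.0, 30.5, 23.2 and 37.3 CPM in wild-type and at 45.1, 52.5, 55.7 and 45.9 CPM in 5xFAD-Dp16. These groups did not overlap (log2 difference 0.85, SE 0.16, adjusted p = 0.0645). Its partner Ifnar2 had 0.83 (adjusted p = 0.17), the type II receptor subunit Ifngr2 had 0.51 (adjusted p = 0.277) and Il10rb, a subunit shared by interleukin-10 family and type III interferon receptors, had 0.56 (adjusted p = 0.478). In each of these 3 the groups were also apart.

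Synaptic and channel genes of the segment stood higher as well. Synj1, a phosphatase of synaptic vesicle recycling, ranged from 89.0 to 199 CPM in wild-type and from 200 to 330 CPM in 5xFAD-Dp16 (log2 difference 0.98, adjusted p = 0.319). Itsn1, an endocytic scaffold, had 1.14 with overlap (adjusted p = 0.398). Kcnj6, a G protein-gated potassium channel, had 1.66 (adjusted p = 0.29) and Grik1, a kainate receptor subunit, 0.99 (adjusted p = 0.331). These values are from the fit that keeps the length trend. In Dp16 against the same wild-type libraries, Synj1, Itsn1, Kcnj6 and Grik1 had lower log2 differences, of 0.475, 0.67, 1.21 and 0.32. App, the amyloid precursor gene, stood at 1131, 841, 1140 and 1507 CPM in wild-type and at 2073, 1626, 1722 and 1572 CPM in 5xFAD-Dp16, with no overlap (log2 difference 0.60, SE 0.19, adjusted p = 0.415). Whether reads of the human APP transgene were counted to the mouse gene was not tested; App was at a log2 difference of -0.47 in 5xFAD and 0.48 in Dp16 against the same wild-type libraries.

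Nuclear and stress genes of the segment picked by function included values below the 1.5-fold mark. Morc3, a nuclear ATPase, had a log2 difference of 0.65 (adjusted p = 0.157), Son, a splicing cofactor, 0.52 (adjusted p = 0.29) and Brwd1, a chromatin reader, 0.41 (adjusted p = 0.39), each without overlap. Sod1, the cytosolic superoxide dismutase, stood at 394 to 608 CPM in wild-type and 581 to 673 CPM in 5xFAD-Dp16, a log2 difference of 0.24 whose interval lay below the 1.5-fold value. With the length trend removed Sod1 was among the 11 genes called, so its value depended on that setting. Hmgn1, a nucleosome-binding protein, had 0.30 and Pcp4, a calmodulin regulator, 0.28, with overlapping groups. The oligodendrocyte factors Olig1 and Olig2 had 0.42 and 0.47, also with overlap. Mx1, an interferon-induced GTPase of the segment, had counts too low to be tested, with at most 0.774 CPM in these libraries.

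Microglial genes of the disease-associated state stood higher as a group, by a median log2 difference of 0.48, while genes of the resting state had a median of 0.17. Of 37 genes of the disease-associated list, 36 were tested and 30 were above 0. Of them 18 were higher and 0 lower at an unadjusted p under 0.05, beside 5.25% of all genes higher, and 12 had no overlap between groups, beside 2.37%. Among males the median was 0.38, with 16 higher and 4 lower, against 8.46% and 6.81% of all genes in that fit. Clec7a and Cst7 were the 2 called. Trem2, the lipid-sensing receptor of this state, stood at 29.2, 29.98, 24.8 and 18.7 CPM in wild-type and at 36.3, 43.0, 36.0 and 35.8 CPM in 5xFAD-Dp16. The groups were apart by a small gap, and the log2 difference was 0.64 (SE 0.18, adjusted p = 0.338). Its adaptor Tyrobp had 0.35 with overlap (adjusted p = 0.539), and Apoe, a lipid carrier made by astrocytes and microglia, had -0.19 (adjusted p = 0.589). Trem2, Tyrobp and Apoe were chosen after their values were seen.

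Further members of the disease-associated and myeloid lists separated the groups without passing the threshold. Itgax, an integrin subunit, was at 0, 0, 0 and 0.0526 CPM in wild-type and at 2.39, 1.16, 0.783 and 0.55 CPM in 5xFAD-Dp16 (adjusted p = 0.0991). Cd52, a lymphoid and myeloid surface antigen, was at 1.79 to 3.45 CPM in wild-type and 6.15 to 7.36 CPM in 5xFAD-Dp16 (log2 difference 1.49, adjusted p = 0.0645). Ctss, a lysosomal protease of antigen processing, was at 114 to 132 CPM against 166 to 194 CPM (log2 difference 0.68, adjusted p = 0.224). Of the 27 general myeloid genes, 23 were above 0, 11 were higher and 0 lower at an unadjusted p under 0.05 (background 5.25% higher), 7 had no overlap (background 2.37%), and the median was 0.55. Among males 6 were higher, against 8.46% of all genes in that fit, and the median was 0.31. Ptprc, the CD45 phosphatase, had 0.82 (adjusted p = 0.385) and Cd68, a lysosomal glycoprotein of phagocytes, 0.92 (adjusted p = 0.398). The 23 homeostatic microglia genes had a median of 0.17 with 1 higher and 1 lower at an unadjusted p under 0.05, and of 0.03 among males, with 12 above 0, and 0.08 without 5xFAD-Dp16 replicate 1. In bulk cortex, more cells of a type and more RNA per cell cannot be told apart.

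Scores of the myeloid lists in 5xFAD-Dp16 lay above those in wild-type. The disease-associated list score, the mean log2 level of its tested genes set to 0 in wild-type, was -0.10 to 0.07 in wild-type and 0.57 to 0.72 in 5xFAD-Dp16. It was 0.11 to 0.28 in Dp16 and 0.79 to 1.35 in 5xFAD. Clec7a stood at 21.0 to 47.4 CPM in 5xFAD and at 1.01 to 1.65 CPM in Dp16. The interaction, which is the Dp16 effect in 5xFAD mice minus that without transgenes, was -2.65 on the log2 scale for Clec7a (unadjusted p = 2.76e-05, adjusted p = 0.235 by edgeR) and -1.73 for Cd86, a co-stimulatory ligand (unadjusted p = 1.2e-05, adjusted p = 0.203). Clec7a and Cd86 had the smallest interaction p-values of all tested genes, so they are its extremes and do not stand for the other myeloid genes. Over all genes the interaction called 0 (0.0%), with 1591 genes at an unadjusted p under 0.05 (9.35%), so a smaller amyloid response in 5xFAD-Dp16 than the sum of both genotypes was not shown for any single gene. The 5xFAD-Dp16 mice were all males and 2 of the 4 5xFAD mice were females. The 2 male 5xFAD libraries had the lower scores of their group, 0.90 and 0.79, both above the highest 5xFAD-Dp16 score. For the general myeloid list the scores overlapped, at 0.44 to 1.16 in 5xFAD and 0.27 to 0.50 in 5xFAD-Dp16, against -0.21 to 0.12 in wild-type.

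**Figure D3:**
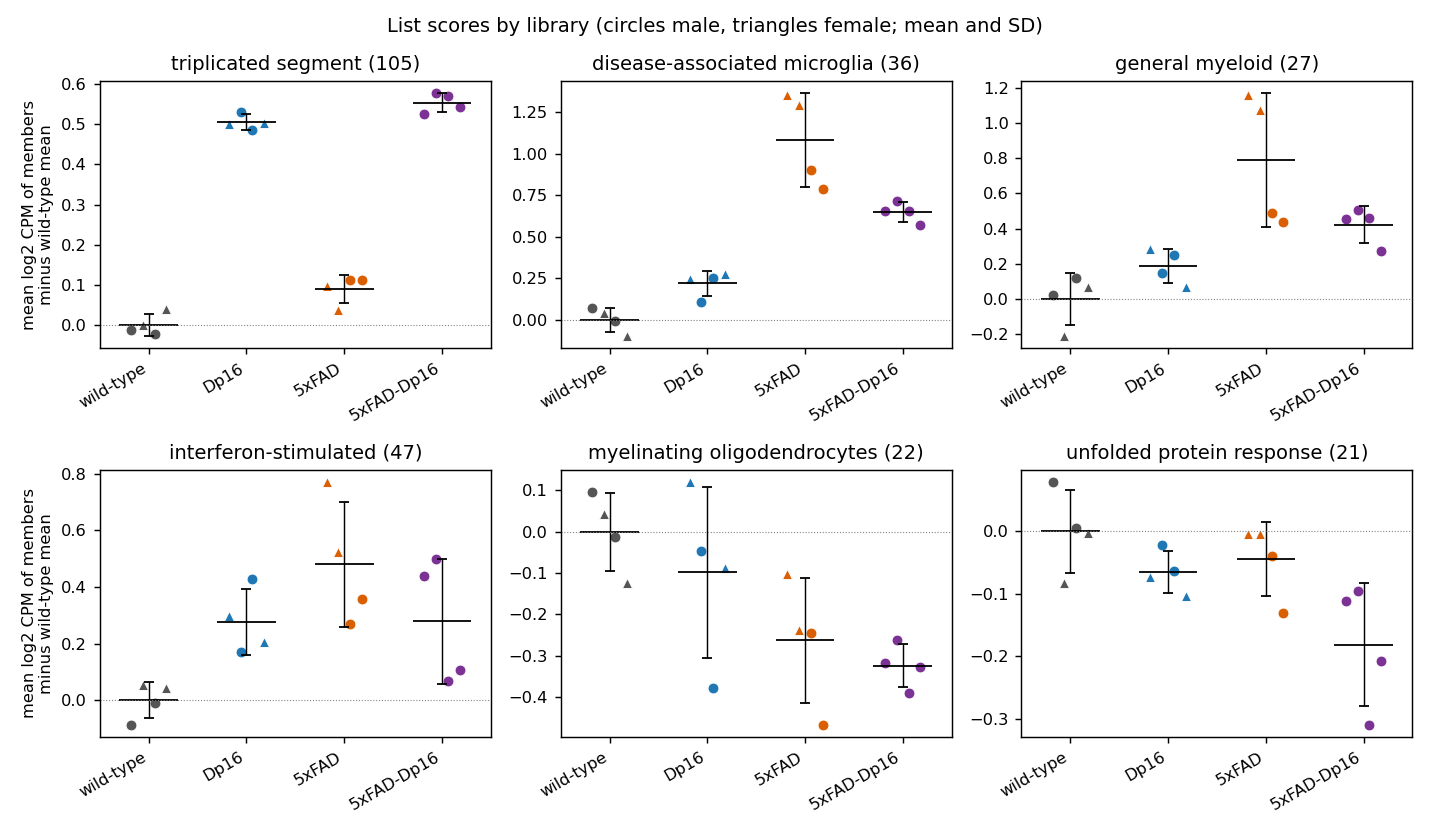
List scores by library for the triplicated segment, disease-associated microglia, general myeloid genes, interferon-stimulated genes, myelinating oligodendrocytes and the unfolded protein response in the 4 genotypes; a score is the mean log2 level of the list's tested genes, set to 0 in wild-type, with males as circles and females as triangles. The disease-associated score is 0.57 to 0.72 in 5xFAD-Dp16 and -0.10 to 0.07 in wild-type, and the myelin score is -0.39 to -0.26 against -0.13 to 0.10.

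The plot of list scores by library shows that the microglial and segment scores of the 5xFAD-Dp16 mice lay close together, while their interferon scores were spread. Among 52 interferon-stimulated genes outside chromosome 16, 47 were tested and 35 were above 0, with a median of 0.35. At an unadjusted p under 0.05, 8 were higher and 0 lower (background 5.25% higher), and 3 had no overlap (background 2.37%). Irf7, the master regulator of type I interferon responses, was at 0.661 to 2.79 CPM in wild-type and 3.60 to 4.38 CPM in 5xFAD-Dp16 (log2 difference 1.26, adjusted p = 0.343). Lgals3bp, a secreted glycoprotein, was at 1.73 to 11.04 CPM against 13.1 to 28.2 CPM (log2 difference 1.59, adjusted p = 0.39). The interferon score was 0.44 and 0.50 in 5xFAD-Dp16 replicates 1 and 2 and 0.07 and 0.11 in replicates 3 and 4, so it differed by animal. In the single genotypes the list median was 0.32 in Dp16 and 0.45 in 5xFAD.

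Promoters of 3 interferon-stimulated genes are shown because these genes hold the sequence through which the interferon-activated factor ISGF3 acts, here searched on both strands as GAAA, any 2 bases and GAAA. The letters were found in the 300 bases around the start of 21 of 39 interferon-stimulated genes with a promoter in the RefSeq table (53.8%). The shares were 3.99% of all 27025 genes with a promoter and 6.9% of disease-associated microglia genes (2 of 29). Matches are in capitals, and those that overlap run together. The sequences are from RefSeq, build GRCm38.p6, 250 bases before to 50 after the start, written along the gene's strand. Gbp3, a guanylate-binding GTPase (chr3:142559794-142560093, plus strand), had a log2 difference of 1.00, and its matches lie 45 and 39 bases before the start. Ifit3, a tetratricopeptide antiviral protein (chr19:34583279-34583578, plus strand), had 0.60 with matches at 156 and 122 bases before it. Bst2, the tetherin that holds virions at the membrane (chr8:71537423-71537722, minus strand), had 0.77 with matches at 130 and 124 bases before it.
Gbp3: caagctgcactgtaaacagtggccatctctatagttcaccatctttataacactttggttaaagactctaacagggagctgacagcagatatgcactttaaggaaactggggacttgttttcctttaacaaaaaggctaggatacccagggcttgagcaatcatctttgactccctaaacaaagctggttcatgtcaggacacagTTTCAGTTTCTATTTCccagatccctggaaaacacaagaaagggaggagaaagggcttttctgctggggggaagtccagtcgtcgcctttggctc
Ifit3: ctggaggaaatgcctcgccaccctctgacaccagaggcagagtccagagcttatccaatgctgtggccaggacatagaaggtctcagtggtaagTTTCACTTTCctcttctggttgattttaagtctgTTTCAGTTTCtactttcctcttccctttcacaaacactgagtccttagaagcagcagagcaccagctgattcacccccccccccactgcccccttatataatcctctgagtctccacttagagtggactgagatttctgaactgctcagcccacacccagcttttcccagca
Bst2: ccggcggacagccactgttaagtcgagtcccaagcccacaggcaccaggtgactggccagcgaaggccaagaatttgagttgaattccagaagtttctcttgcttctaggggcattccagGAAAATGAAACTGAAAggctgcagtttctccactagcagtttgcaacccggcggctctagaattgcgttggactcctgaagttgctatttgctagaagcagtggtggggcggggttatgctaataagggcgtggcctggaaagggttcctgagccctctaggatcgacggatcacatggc

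These 3 genes did not pass the threshold in cortex. Ifit3 stood at 9.11, 10.2, 7.81 and 8.83 CPM in wild-type and at 11.8, 16.3, 11.1 and 10.9 CPM in 5xFAD-Dp16, apart by a small gap (adjusted p = 0.449). Gbp3 stood at 2.86 to 8.09 CPM in wild-type and 4.91 to 11.6 CPM in 5xFAD-Dp16 (adjusted p = 0.449), and Bst2 at 1.37 to 4.41 CPM against 3.91 to 9.25 CPM (adjusted p = 0.5), both with overlap. A match of letters is a description of the sequence and no measure of binding.

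The Clec7a promoter is shown because Clec7a had the smallest p of all genes, and it was searched for GAGGAA, the core bound by the myeloid factor PU.1, on both strands. This motif was chosen after the values were seen. Cst7, the other called microglial gene, was searched in the same way, and no promoter with a match was found. The Clec7a window (chr6:129472730-129473029, minus strand, RefSeq GRCm38.p6) holds 1 match, 96 bases before the start, in capitals. The same letters stand in a promoter of 31.3% of all genes with a promoter, 37.9% of the disease-associated list and 35.9% of the interferon list.
Clec7a: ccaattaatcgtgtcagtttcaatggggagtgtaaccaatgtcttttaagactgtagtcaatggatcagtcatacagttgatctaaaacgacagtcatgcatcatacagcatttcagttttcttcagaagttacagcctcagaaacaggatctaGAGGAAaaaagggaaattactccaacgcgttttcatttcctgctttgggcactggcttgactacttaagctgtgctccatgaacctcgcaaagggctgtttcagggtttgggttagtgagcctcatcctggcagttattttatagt

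Further immune lists had positive medians that moved when a library was left out or only males were used. The fit among males also leaves out wild-type replicates 2 and 4, so a shift there cannot be assigned to sex. Beside the counts at an unadjusted p under 0.05 in these lists, 5.25% of all genes were higher and 5.12% lower. The 17 tested genes of antigen presentation had a median of 0.23 with 3 higher and 1 lower at an unadjusted p under 0.05; the median was 0.10 without 5xFAD-Dp16 replicate 2, 0.42 without wild-type replicate 3 and 0.11 among males. B2m, the light chain of MHC class I, was at 122 to 133 CPM in wild-type and 150 to 192 CPM in 5xFAD-Dp16, without overlap (log2 difference 0.48, adjusted p = 0.433). H2-D1, an MHC class I heavy chain whose reads may be shared with near-identical class I genes, had 0.44 with overlap (adjusted p = 0.479). Of 20 tested complement genes 15 were above 0, with a median of 0.28, or 0.15 among males, and 3 higher at an unadjusted p under 0.05; C4b, a component of the classical pathway, had 1.02 (adjusted p = 0.48) with 1 of the 4 libraries inside the wild-type range. The 13 chemokine genes had a median of 0.18 with 5 higher and 1 lower. Their median was 0.98 among males, 0.49 without wild-type replicate 4, 0.48 without 5xFAD-Dp16 replicate 3 and 0.11 without 5xFAD-Dp16 replicate 1. Ccl6, a myeloid chemokine, was at 2.103 to 6.24 CPM in wild-type and 8.26 to 13.6 CPM in 5xFAD-Dp16 (log2 difference 1.41, adjusted p = 0.17), and Ccl3 was at 0 to 0.526 CPM against 0.956 to 2.49 CPM (adjusted p = 0.277). Of 17 lymphocyte genes 4 had enough reads to be tested, and Cd3g, Gzmb and Ms4a1 had 0 reads in the 8 libraries.

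In astrocytes the reactive marker Gfap stood higher, beside identity genes with a median of -0.003. Gfap, the astrocytic intermediate filament, stood at 161, 152, 170 and 165 CPM in wild-type and at 449, 391, 366 and 256 CPM in 5xFAD-Dp16. All 4 libraries with both modifications were above all wild-type ones (log2 difference 1.28, SE 0.27), yet the adjusted p was 0.157. Serpina3n, a protease inhibitor of reactive astrocytes, had 1.13 (adjusted p = 0.233) with 1 library inside the wild-type range. The 23 tested reactive genes had a median of 0.13, with 5 higher and 4 lower at an unadjusted p under 0.05 (background 5.25% and 5.12%). Tm4sf1, a transmembrane protein also made by vessels, was the lowest-p member on the lower side, at 20.6 to 36.6 CPM in wild-type and 15.9 to 21.5 CPM in 5xFAD-Dp16 (log2 difference -0.79, adjusted p = 0.233). The 20 astrocyte identity genes were on both sides of 0, with 0 higher and 1 lower.

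Myelin genes stood lower. Of 22 genes of myelinating oligodendrocytes 3 were above 0, and 0 were higher and 7 lower at an unadjusted p under 0.05 (background 5.25% and 5.12%). Below all wild-type libraries lay 9 of them, against a background of 1.61%. The median log2 difference was -0.31. Mog, a surface glycoprotein of myelin, stood at 101, 82.3, 75.9 and 80.5 CPM in wild-type and at 62.5, 67.8, 58.4 and 61.4 CPM in 5xFAD-Dp16, without overlap (log2 difference -0.41, SE 0.14, adjusted p = 0.427). Mag, an adhesion molecule of the inner myelin surface, had -0.30 (adjusted p = 0.449), and Mbp, an abundant myelin component chosen after its values were seen, had -0.32 (adjusted p = 0.479). Both lay below the wild-type range. Wild-type replicate 1 had the highest myelin levels, and without it the list median was -0.22 with 0 genes lower at an unadjusted p under 0.05. In that fit 458 of all 17019 genes were lower, against 871 in the main fit. Among males the median was -0.42 with 15 lower, against 6.81% of all genes, and with the length trend removed it was -0.26 with 7 lower, against 4.19%. The 16 precursor genes had a median of 0.17 with 0 higher and 1 lower. In the single genotypes the myelin median was -0.11 in Dp16 and -0.27 in 5xFAD.

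Neuronal identity genes showed no call. The 20 excitatory neuron genes had a median of 0.23 with 18 above 0, and 2 were higher at an unadjusted p under 0.05 (background 5.25%). Slc17a6, a vesicular glutamate transporter of deep-layer and thalamic neurons, was at 15.2 to 23.9 CPM in wild-type and 24.2 to 32.2 CPM in 5xFAD-Dp16 (log2 difference 0.56, adjusted p = 0.427). The 23 inhibitory neuron genes went both ways, with 4 higher and 3 lower (background 5.25% and 5.12%). Pvalb, the calcium buffer of fast-spiking interneurons, was at 140 to 319 CPM in wild-type and 112 to 163 CPM in 5xFAD-Dp16 (log2 difference -0.94, adjusted p = 0.374), and the neuropeptide gene Cck had -0.40 without overlap (adjusted p = 0.4). Gad2, a GABA-synthesizing enzyme, had 0.47, and Nos1, the neuronal nitric oxide synthase, had 1.46, each with wild-type replicate 4 inside the range of 5xFAD-Dp16.

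Immediate early genes, which follow neuronal activity, had a median of 0.01 over 33 genes with 17 above 0, while the medians were -0.29 in Dp16 and -0.51 in 5xFAD against the same wild-type libraries. The value rested on 5xFAD-Dp16 replicate 1, without which the median was -0.18 with 5 genes above 0. At an unadjusted p under 0.05, 0 were higher and 3 lower (background 5.25% and 5.12%). Gadd45b, a DNA damage and activity-induced gene, was at 22.9 to 33.6 CPM in wild-type and 17.7 to 21.6 CPM in 5xFAD-Dp16, without overlap (log2 difference -0.50, adjusted p = 0.415). Rhob, a small GTPase, had -0.33 without overlap (adjusted p = 0.39). Wild-type scores of this list spanned -0.35 to 0.30 and 5xFAD-Dp16 scores -0.24 to 0.37.

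Ribosomal protein genes and nuclear genes of oxidative phosphorylation stood lower, and both lists moved with the length trend of the libraries. Of 82 tested ribosomal protein genes, which are short, 1 was above 0 and the median was -0.48. At an unadjusted p under 0.05, 1 was higher and 52 were lower (background 5.25% and 5.12%). None of them had groups that did not overlap. Their score was -0.56 to 0.38 in wild-type and -0.58 to -0.23 in 5xFAD-Dp16, so the lowest wild-type library (replicate 4) stood among the 5xFAD-Dp16 libraries. Rpl37a, a large-subunit protein, was at 398, 430, 342 and 214 CPM in wild-type and at 213, 232, 248 and 250 CPM in 5xFAD-Dp16. With the trend removed the list median was -0.23 with 35 lower, against 4.19% of all genes. Without wild-type replicate 1 there were 6 lower genes and without replicate 4 there were 77. The count was 19 without wild-type replicate 2, and 14 and 30 without 5xFAD-Dp16 replicates 1 and 3. Over all 17019 genes the number lower moved, from 871 in the main fit to 458 without wild-type replicate 1 and 1684 without replicate 4. It was 533 without wild-type replicate 2, and 456 and 546 without 5xFAD-Dp16 replicates 1 and 3.

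Of 36 nuclear genes of oxidative phosphorylation 2 were above 0, the median was -0.34, and 12 were lower at an unadjusted p under 0.05 (background 5.12%). Cox8a, a subunit of cytochrome c oxidase, was at 779, 915, 726 and 535 CPM in wild-type and at 505, 552, 538 and 554 CPM in 5xFAD-Dp16, with the fourth wild-type library in the 5xFAD-Dp16 range (log2 difference -0.49, adjusted p = 0.39). The list median was -0.15 with the trend removed, with 5 genes lower, against 4.19% of all genes. Without wild-type replicate 1 there were 2 lower genes, without 5xFAD-Dp16 replicate 1 there were 3, without wild-type replicate 2 or 5xFAD-Dp16 replicate 3 there were 5, and without wild-type replicate 4 there were 27. The number lower over all genes also moved in these fits, from 456 without 5xFAD-Dp16 replicate 1 to 1684 without wild-type replicate 4. The 13 transcripts of the mitochondrial genome stood higher by a median of 0.29, and by 0.59 with the trend removed. Of them 5 were higher at an unadjusted p under 0.05 (background 5.25%) and 0 had groups apart. The count was 0 with no sex term (median 0.24) and 2 without 5xFAD-Dp16 replicate 3 (median 0.26). In these fits 675 and 614 of all 17019 genes were higher, against 893 in the main fit.

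Synaptic proteins and clustered protocadherins, many of them long genes, leaned the other way. Of 36 synaptic genes 29 were above 0 with a median of 0.25, which was 0.08 with the trend removed and 0.15 without 5xFAD-Dp16 replicate 1. Rims1, a scaffold of the presynaptic active zone, was at 73.6 to 177 CPM in wild-type and 123 to 198 CPM in 5xFAD-Dp16 (log2 difference 0.71, adjusted p = 0.466). Of 55 tested protocadherins, adhesion proteins that give neurons a surface identity, 41 were above 0 with a median of 0.38, and 0.22 with the trend removed. That median was 0.20 without wild-type replicate 2, 0.21 without 5xFAD-Dp16 replicate 1 and 0.25 without wild-type replicate 1. Exons shared between protocadherin isoforms make the counts of single members uncertain.

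**Figure D4:**
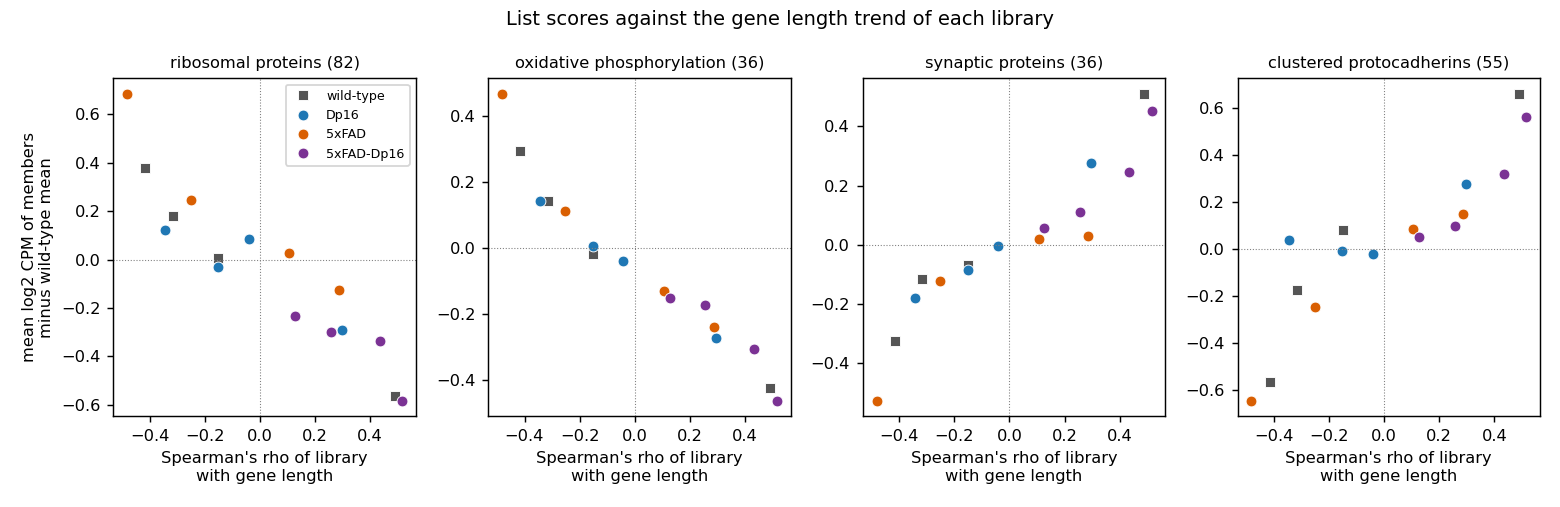
List scores of ribosomal proteins, nuclear oxidative phosphorylation genes, synaptic proteins and clustered protocadherins against the length trend of each library (Spearman's rho, over genes, of length with its departure from the average) in the 16 libraries, colored by genotype. The 5xFAD-Dp16 libraries have rho of 0.127 to 0.516, and wild-type replicate 4, with 0.49, lies beside them.

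The plot of list scores against the length trend shows libraries of all genotypes along a common course, which describes what the 2 measures share. How far genotype and length trend each contribute cannot be told apart here, since 3 of 4 wild-type libraries have rho below 0 and all 5xFAD-Dp16 libraries have rho above 0.

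Stress lists stood lower or near 0. Of 21 genes of the unfolded protein response 5 were above 0, 0 were higher and 8 lower at an unadjusted p under 0.05 (background 5.12% lower), 4 lay below all wild-type libraries (background 1.61%), and the median was -0.25. Without wild-type replicate 1 or 3 there were 4 lower, in fits where 458 and 746 of all 17019 genes were lower, against 871 in the main fit. Ddit3, the transcription factor CHOP, stood at 51.0, 54.5, 48.6 and 36.3 CPM in wild-type and at 31.0, 34.0, 27.8 and 32.9 CPM in 5xFAD-Dp16. It lay below all wild-type libraries (log2 difference -0.62, SE 0.15, adjusted p = 0.233). Manf, a secreted protein of the endoplasmic reticulum, had -0.59 (adjusted p = 0.385) and the chaperone gene Hspa5 -0.41 (adjusted p = 0.443). The list median was -0.15 with the length trend removed and -0.29 among males. The 18 heat shock genes had a median of -0.14 with 3 lower, among them Hspb1, a small chaperone (log2 difference -1.25, adjusted p = 0.441). The 22 antioxidant genes had a median of -0.04, the 40 lysosomal genes 0.01 and the 24 cholesterol synthesis genes 0.04. The cholesterol scores did not overlap, at -0.107 to 0.116 in wild-type and 0.139 to 0.205 in 5xFAD-Dp16. Of its genes, 4 lay above all wild-type libraries (background 2.37%). With no sex term the cholesterol median was 0.13 with 19 genes above 0, against 0.01 over all genes.

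Markers of cells that a cortex dissection can hold besides neurons and glia were checked in the same way. Endothelial genes (19 tested) had a median of -0.14 and mural and fibroblast genes (19 tested) -0.05, or 0.23 among males. Each had 0 higher and 1 lower at an unadjusted p under 0.05 (background 5.25% and 5.12%). Choroid plexus and ependyma genes had a median of 0.37 that rested on 5xFAD-Dp16 replicate 2, and it was -0.40 without that library. Ttr, the transthyretin gene of choroid plexus, was at 677 CPM in that library and at 3.14 to 17.9 CPM in the other 7 except wild-type replicate 3, at 19.5 CPM. Kcne2, a channel subunit of the same tissue, was at 14.02 CPM in that library. The 6 tested blood genes had a median of -0.45 with 1 above 0 and 1 lower at an unadjusted p under 0.05; it was -0.12 without wild-type replicate 1, -0.28 without 5xFAD-Dp16 replicate 3 and -0.70 among males. Their summed levels were 183 to 557 CPM in wild-type and 221 to 349 CPM in 5xFAD-Dp16. The 12 striatal genes had a median of -0.04 and the 10 macrophage genes of perivascular or blood origin -0.11. The 11 hippocampal and thalamic genes had a median of 0.48 with 2 higher. Of these, Prkcd, a kinase of thalamic relay neurons, was at 0.578 to 3.26 CPM in wild-type and 4.16 to 11.6 CPM in 5xFAD-Dp16 (log2 difference 1.61, adjusted p = 0.355). The hippocampal and thalamic median was 0.26 with the length trend removed and 0.34 without wild-type replicate 2. Scores of this list were -0.53 to 0.65 in wild-type, with replicate 4 the highest, and 0.34 to 0.58 in 5xFAD-Dp16.

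Orthologs of human chromosome 21 genes that lie outside the duplication were near the background. Of 49 such genes 38 were tested, with a median of 0.11 and 26 above 0. At an unadjusted p under 0.05, 3 were higher and 0 lower (background 5.25% and 5.12%). The lowest p among them was that of Itgb2, the integrin beta chain of leukocytes, at 4.64 to 9.15 CPM in wild-type and 8.70 to 11.9 CPM in 5xFAD-Dp16 (log2 difference 0.90, adjusted p = 0.39). Clock genes (18) had a median of 0.16 and glucocorticoid-responsive genes (16) a median of -0.02, with 0 higher and 2 lower. Tsc22d3, a glucocorticoid-induced leucine zipper protein, had -0.67 with overlap (adjusted p = 0.39).

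**Figure D5:**
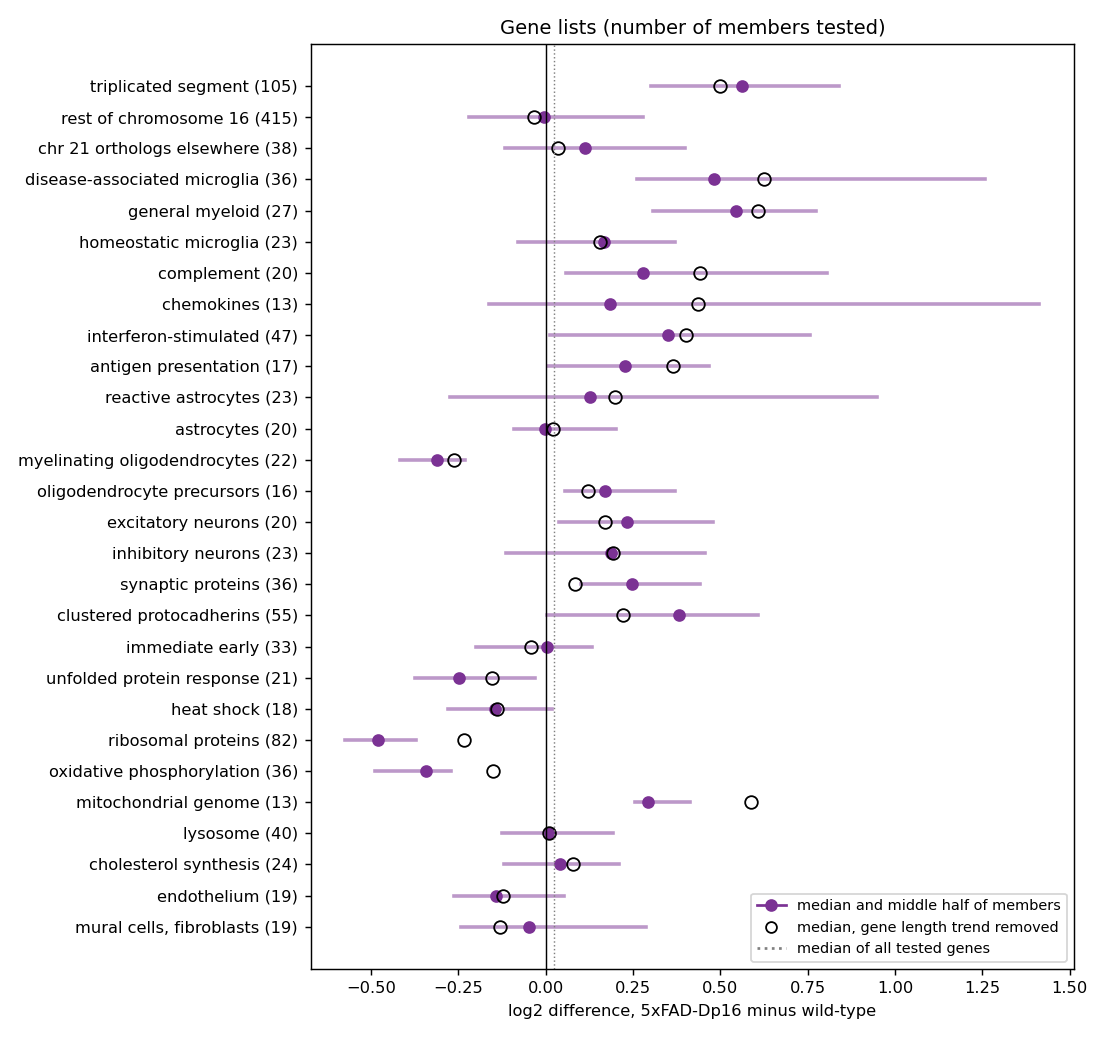
Median log2 difference between 5xFAD-Dp16 and wild-type for each gene list, with a bar from the 25th to the 75th percentile of its tested genes; open circles give the median with the length trend removed, and the dotted line is the median of all tested genes, 0.02. The triplicated segment (0.56), general myeloid genes (0.55) and disease-associated microglia (0.48) lie to the right, and ribosomal proteins (-0.48) to the left.

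The plot of list medians places the segment and the myeloid lists high both with and without the length trend, at 0.50, 0.61 and 0.63 after its removal, while the ribosomal, oxidative phosphorylation and synaptic medians moved toward 0.

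Against the single genotypes, few adjusted calls were made in the model of all 16 libraries. Compared with Dp16, which asks what the transgenes add to the duplication, 3 genes rose (0.0176% of those tested): Clec7a by 3.30 (adjusted p = 0.00023), Thy1 by 0.99 (adjusted p = 0.00143) and Cst7 by 5.31 (adjusted p = 0.0037) on the log2 scale, with 901 genes at an unadjusted p under 0.05 (5.29%). The disease-associated list had a median of 0.31 in that comparison. Compared with 5xFAD, which asks what the duplication adds to the transgenes, edgeR called 0 genes (0.0%), with 4049 at an unadjusted p under 0.05 (23.8%). The segment median was 0.51 with 89 of 105 genes above 0, the disease-associated median -0.31 and the ribosomal median -0.69. The count depended on the setting: with the contrast among males 4005 genes passed, and with the length trend removed 4 did. The male 5xFAD libraries, replicates 3 and 4, had a length rho of -0.482 and -0.252, against 0.127 to 0.516 in 5xFAD-Dp16. Among males, genotype and length trend therefore cannot be told apart in this comparison.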

How the data were processed

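Polyadenylated RNA from brain cortex was sequenced in 16 mice, 1 library each; the labels' protocols name TRIzol for extraction and a strand-specific Tecan kit for the libraries. The authors deposited raw counts for 55385 genes, and a table of RPKM values (counts per gene length and library total), used here for gene lengths: 100.0% of values met that relation within 0.1%. The submitters' processing notes name bcl2fastq, HISAT2 2.1.0, SAMtools 1.5, HTSeq 0.6.1, FastQC 0.11.5 and build GRCm38; the strand setting is not given in the sources used here. Coordinates came from Gencode M21 by gene identifier (55144 matched, 241 not).

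edgeR 4.0.16 (R 4.3.3) fitted a negative binomial model of genotype and sex over 16 libraries: low counts filtered by genotype (17019 genes kept), TMM scaling, robust quasi-likelihood dispersions, two-sided tests and p-values adjusted by Benjamini-Hochberg over the 17019 genes, with a threshold of 0.05. The common biological coefficient of variation was 0.266. P-values measure the spread between animals. CPM are counts divided by the TMM-scaled total of tested genes, SE is the log2 difference divided by the root of its F statistic, and intervals are 95%. List scores use log2 of CPM plus 0.5. The length trend was removed, as an alternative, with a spline offset per library (5 degrees of freedom); the contrast among males was fitted to male libraries. Further alternatives were DESeq2 1.42.0, other normalization and filters, no sex term, fewer genotypes, a replicate term and leaving out each library. Floors are 3 counts and cover counting error only.

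Named genes were Thy1, App, nonagouti and sex-linked genes, called genes, in each list the 4 members of smallest adjusted p at most, and segment genes picked by function; others are marked. The members and the lists were chosen with earlier results of these data known, so counts over lists are descriptions and carry no test. Replicate numbers did not pair libraries.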

Additional observations from a re-analysis of the deposited data

Results flagged for a closer look

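Single libraries stood far from the other 3 of their genotype in 14 of 218 groups of named genes tested with Dixon's criterion at its 95% value, and chance alone gives about 1 in 20. Wild-type replicate 4, a female with the most positive length trend of its group, was the lowest for Il10rb (5.26 CPM, others up to 8.75), Hmgn1 (74.0 CPM) and Rhob (352.9 CPM) and the highest for Nos1 (15.5 CPM, others 3.14 to 3.63). Wild-type replicate 1 was the highest for Gadd45b (33.6 CPM) and Mbp (5409 CPM).

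In 5xFAD-Dp16, replicate 1 was the highest for Dscam (37.4 CPM, others 26.8 to 27.8) and Olig2 (45.6 CPM) and the lowest for Cox6a1 (487 CPM). Replicate 2 was the highest for Ripk4 (2.66 CPM, others 0.936 to 1.04), Trem2 (43.0 CPM, others 35.8 to 36.3), Ifit3 (16.3 CPM, others 10.9 to 11.8) and Ttr (677 CPM, others 3.14 to 17.9). Replicate 4 was the highest for Tmem50b (166.8 CPM). Causes of these single values were not tested.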

How the results depend on the processing

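The count of 8 called genes, all higher, was the same with DESeq2's size factors in edgeR, a filter of 1 CPM in 4 libraries, or without 5xFAD replicate 3, a setting added after the data were seen. It was 106 (76 higher, 30 lower) by DESeq2, 292 (184 and 108) with no filter on low counts, 14 (13 and 1) with no sex term, and 11 (10 and 1) with the length trend removed. It was 2 (2 and 0) with the contrast among males, 8 (6 and 2) with males and the length trend removed together, and 0 with only the 2 genotypes compared, where 1282 genes had an unadjusted p under 0.05. Leaving out 1 library gave 3 to 21 calls (3 to 16 higher, 0 to 5 lower); without wild-type replicate 4 there were 21 and without wild-type replicate 3 or 5xFAD-Dp16 replicate 1, 3 or 4 there were 3. With the replicate number as a block, 3 genes passed (3 higher, 0 lower); same-numbered libraries did not deviate together (r of -0.087, 0.139, 0.001 and -0.199), so the numbers do not pair animals. Against 5xFAD, the 0 calls became 4005 among males, 4 with the length trend removed and 16 with no sex term, settings added after the data were seen. List medians moved by less than the replicate spread in 678 cases and by more in 63. Of the values of single genes under the alternatives, 1922 kept their direction and side of the threshold, 88 crossed to the called side, 57 lost the call and 2 turned sign: Brwd1 to -0.006 among males with the length trend removed, and Ttr, -0.95 without 5xFAD-Dp16 replicate 2 and 2.8 to 3.683 without another library. The causes were not tested. With 4 animals a group and a common coefficient of variation of 0.266, the intervals of 50 of the 105 segment genes held both 0 and the 1.5-fold value, and the sex term rests on the other genotypes and 2 wild-type females.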
